A study of Ovis aries with 16 samples.

Results

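The insulin-like growth factor (IGF) axis was followed in the hypothalamus of fetal sheep after a brief period of low oxygen, with or without ketamine. Its members were all array probes whose gene name, or whose current symbol by RefSeq accession, was IGF1, IGF2, IGF1R or IGF2R or began with IGFBP. The rule found 9 of the 1035 genes named on the array, read by 16 of its 15008 probes. These were IGF1 with 1 probe, IGF2 with 2, IGF1R with 1, IGFBP1 with 3, IGFBP3 with 1, and IGFBP2, IGFBP4, IGFBP5 and IGFBP6 with 2 each. IGF2R and IGFBP7 had no member under those names and were not analysed as members. The rule used names only, so no measured value entered the choice.

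IGF1 and IGF2 are small secreted peptides related to insulin that act as growth and survival factors in the developing brain. Both signal through the type 1 receptor, a tyrosine kinase encoded by IGF1R, while the type 2 receptor, also the mannose-6-phosphate receptor, takes up and clears IGF2. Most IGF outside cells is bound by the IGF binding proteins, which carry the peptides, hold them in the matrix and can either block or prolong their action, and IGFBP1 and IGFBP3 are known as genes that respond to low oxygen and to inflammation in several tissues.

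RNA was taken from the hypothalamus of late-gestation Suffolk fetuses and measured on 16 one-color Agilent arrays, 1 fetus to an array. All fetuses, the controls included, had been catheterized in surgery under isoflurane. The normoxia control group (NC, n = 3) received saline and underwent 30 min of normoxia, and the normoxia plus ketamine group (NK, n = 4) received intravenous ketamine before the same 30 min. The hypoxia control group (HC, n = 5) received saline before 30 min of hypoxia, produced by lowering the oxygen that the ewe breathed, and the hypoxia plus ketamine group (HK, n = 4) received ketamine before that hypoxia. Every fetus then recovered for 23.5 h, so the tissue dates from 24 h after the stimulus began. Ketamine, an anesthetic, antagonizes glutamate at NMDA receptors. Most fetuses were twins and pregnancies, not fetuses, were randomized to normoxia or hypoxia, and because littermates cannot be told from the labels, the tests treated the fetuses as independent.

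Each array had 71.8 to 80.6% of its probes well above background, and arrays correlated with each other at r = 0.956 to 0.987 over the tested probes. Probes of 8 of the 15 listed hypothalamic peptide genes, among them POMC, NPY and GNRH1, and of the astrocyte genes GFAP and AQP4 were well above background on nearly all arrays, while the listed neuron and oligodendrocyte genes carried no name on the array. Of the 8 listed anterior pituitary genes, the hormone genes PRL, CGA and LHB were well above background on 14 to 16 arrays and FSHB on 4, while GH and POU1F1 were so on at most 1. The arrays lay on 2 slides, each with arrays of all 4 groups. All values below are log2 signals from which the 75th percentile of the same array was subtracted, so a value of 0 is the signal at that percentile and a difference of 1 is a doubling. Levels of different probes are not comparable, because probes bind with different strength. In tissue RNA, fewer cells of a type and less RNA per cell cannot be told apart.

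Each probe is 60 bases long, and its sequence decides which transcript was read. The probes behind the results are shown here as the array lists them, beginning with those of the genes that differed with hypoxia. The IGFBP3 probe has a GC content of 75%, the highest of the 16 probes, against a median of 43.3% over all probes of the array. The IGF1 probe is shown with the first stop codon of its frame in capitals, and 15 bases follow that codon.
IGFBP3 A_70_P028616: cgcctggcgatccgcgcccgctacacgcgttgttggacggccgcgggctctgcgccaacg
IGF1 A_70_P051091: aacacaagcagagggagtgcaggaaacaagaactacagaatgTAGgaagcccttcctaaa
IGF2 A_70_P016796: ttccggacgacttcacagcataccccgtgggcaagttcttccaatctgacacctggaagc
IGFBP1 A_70_P069081: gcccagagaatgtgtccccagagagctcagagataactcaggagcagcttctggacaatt

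The paired probes of IGFBP2, IGFBP4, IGFBP5 and IGFBP6, and A_70_P016366 and A_70_P016367 of IGFBP1, share 59 of their 60 bases and are near copies of each other rather than separate readings. The IGFBP5 pair shows this, with the base that the other probe lacks in capitals.
IGFBP5 A_70_P041812: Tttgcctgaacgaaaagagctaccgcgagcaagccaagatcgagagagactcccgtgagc
IGFBP5 A_70_P041811: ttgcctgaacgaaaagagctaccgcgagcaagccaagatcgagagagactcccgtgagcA
The 2 IGF2 probes share no stretch of sequence, nor does the third IGFBP1 probe, A_70_P069081, with the rest. In the RefSeq annotation of the sheep assembly ARS-UI_Ramb_v3.0, IGFBP3 and IGFBP1 are neighbours, as are IGFBP2 and IGFBP5, and IGF2 lies next to INS, the insulin gene.

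After hypoxia, 2 genes of the axis passed the study's threshold, in opposite directions. IGFBP3, the main carrier of IGFs in the circulation, rose in HC, and IGF1 fell in HC and again in HK against NK. The other 7 genes passed no test. In HC against NC, 2 of the 16 probes passed that threshold, an unadjusted p under 0.05, where 8.02% of the 12250 tested probes did. Of the 2, 1 was higher (4.35% of all tested probes) and 1 lower (3.67%). In HK against NK, 1 of 16 passed, IGF1 at a lower level, where 8.69% of all probes passed and 6.3% passed at a lower level. In NK against NC none of the 16 passed (1.09% of all probes), in HK against HC none (6.92%), and for the interaction, the difference between the effect of ketamine in hypoxia and in normoxia, none (3.72%). After adjustment by Benjamini-Hochberg over the whole table in limma no member passed, and the smallest adjusted p among members was 0.382 in HC against NC, 1.00 in NK against NC, 0.752 in HK against HC, 0.458 in HK against NK and 0.996 for the interaction. The median difference of the members was 0.12 in HC against NC and 0.05 in HK against NK, beside -0.02 and -0.01 over all tested probes.

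**Figure D1:**
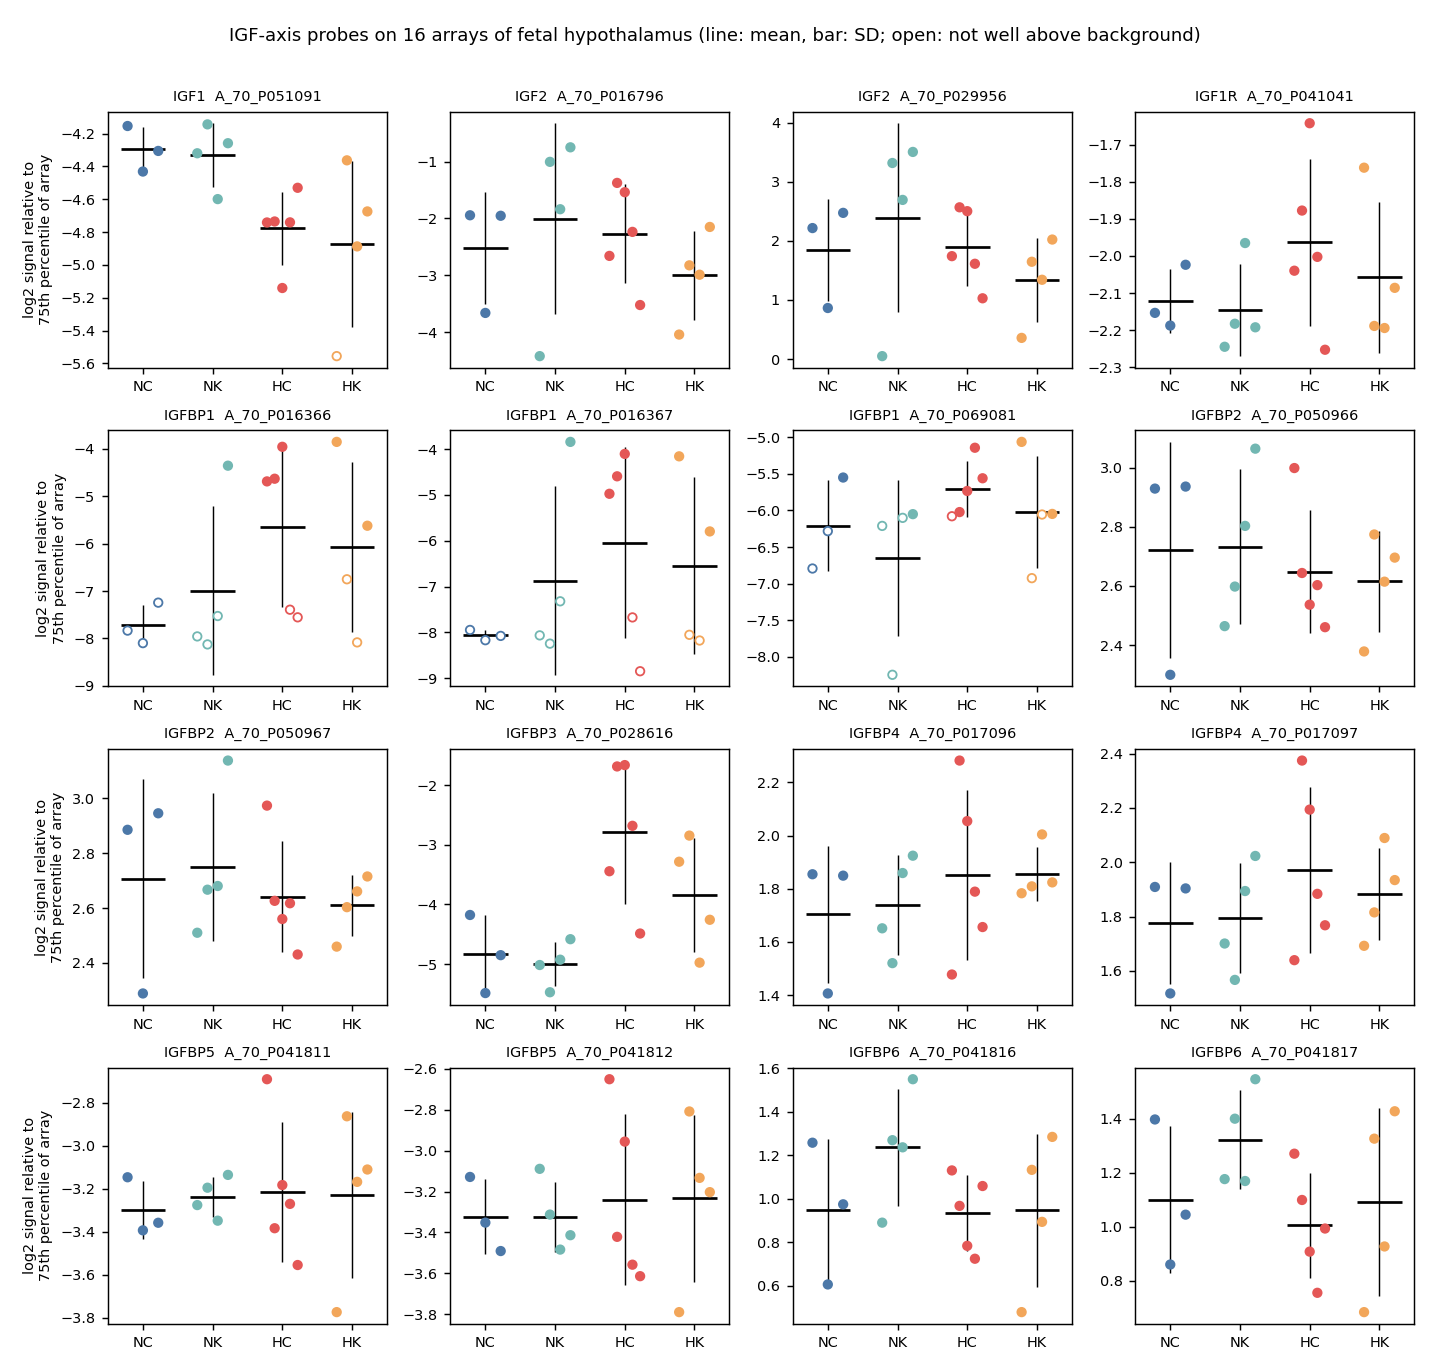
Signal of each of the 16 IGF-axis probes (log2 minus the 75th percentile of the array, vertical axis, its own scale in each panel) in the arrays of NC, NK, HC and HK, with 1 point per fetus, the group mean as a line and the SD as a bar, and open points where the probe was not well above background. IGFBP3 sits between -5.48 and -4.18 in NC and NK and reaches -1.67 in HC, and every HC array of IGF1 lies below every NC array.

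The ligand IGF1 was at -4.15, -4.43 and -4.31 in the NC arrays and at -4.32, -4.14, -4.60 and -4.26 in the NK arrays. In HC it was at -4.74, -4.74, -5.14, -4.74 and -4.53, and in HK at -5.56, -4.36, -4.89 and -4.67. All 5 HC arrays lay below all 3 NC arrays, a pattern in which 4.75% of the tested probes had no overlap in either direction and 2.21% had HC wholly below NC. The HK arrays overlapped with NK only through HK2, and HK1, the lowest of all arrays, was the only 1 of the 16 where IGF1 was not well above background.

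The fitted IGF1 difference was -0.48 ± 0.21 (SE) in HC against NC, a 1.40-fold lower signal (limma, past the unadjusted threshold, adjusted p = 0.593). In HK against NK it was -0.54 ± 0.21, 1.45-fold lower (limma, past the unadjusted threshold, adjusted p = 0.458). Ketamine did not move IGF1 detectably within either oxygen condition: the difference was -0.03 (95% interval -0.51 to 0.45) in NK against NC and -0.09 (-0.51 to 0.33) in HK against HC, and the interaction was -0.06 (-0.70 to 0.58). A probe lower with p under 0.05 in both hypoxia comparisons, which share no arrays, was found for 57 of 12250 probes, or 0.465%, and IGF1 was the only member among them. With both ketamine arms averaged, an estimate added after the data were seen, the difference of IGF1 with hypoxia was -0.51 ± 0.15 (limma, adjusted p = 0.219). IGF1 and IGFBP3 were the members past the unadjusted threshold in that fit, as were 13.2% of all probes.

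The 2 slides gave IGF1 differences of -0.45 and -0.50 in HC against NC and of -0.73 and -0.35 in HK against NK. The IGF1 call in HC against NC was close to the threshold. It was lost without NC1, NC3, NK1, HC1, HC2, HC3, HC4 or HK3, where the difference lay between -0.49 and -0.39, and with slide as a block (-0.47). In HK against NK it was lost without HK1 (-0.31) or NK2 (-0.48), with the deposited values (-0.11) and with HK and NK fitted alone. The IGF1 difference was smaller with normexp background correction, at -0.20 in HC against NC and -0.17 in HK against NK, and HC against NC was -0.15 with the deposited values, these 3 past the unadjusted threshold. Over the alternatives the adjusted p of IGF1 ran from 0.366 to 0.982 in HC against NC and from 0.151 to 0.795 in HK against NK (limma).

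Markers listed for the meninges and fibroblasts correlated with IGF1 over all arrays, but little within groups. The signals of DCN, a matrix proteoglycan, and COL3A1, a fibrillar collagen, were summed on a linear scale in multiples of the 75th percentile. DCN made up nearly all of the sum, with log2 group means of 1.57 to 2.49 beside -5.17 to -4.27 for COL3A1. In HC and NC, DCN was alike (1.92 and 1.94), while COL3A1 A_70_P016307 was lower in HC (-5.15 and -4.47). The sum lay between 2.57 and 3.33 in HK and between 4.48 and 7.22 in NK. Between HC and NC it overlapped, at 2.88 to 5.22 and 3.01 to 4.74. Over the 16 arrays it correlated with IGF1 at r = 0.498 (permutation p = 0.0483, adjusted over 15 pairs of gene and list 0.181) and rho = 0.509 (permutation p = 0.0475, adjusted 0.237). The value of r was 0.474 without HC3 and HK1, 0.538 and 0.514 on slides 1 and 2, and 0.195 after centring each group. The summed signal of the anterior pituitary list ran opposite to IGF1 at r = -0.502 (permutation p = 0.0472, adjusted 0.181), and at -0.106 without HC3 and HK1. LHB A_70_P039602 made up most of that sum, with log2 group means of 2.65 to 2.91 beside -2.24 to -1.58 for CGA A_70_P039421. The part of either list in the IGF1 differences was not tested.

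The ligand IGF2, a growth factor strongly expressed in fetal tissue and in the coverings of the brain, differed more between fetuses than between groups. Probe A_70_P029956 was at 2.22, 0.86 and 2.47 in NC, at 0.05, 3.32, 2.69 and 3.50 in NK, at 1.74, 2.57, 2.50, 1.61 and 1.03 in HC, and at 0.36, 1.65, 1.34 and 2.02 in HK. Its extremes, NK1 and NK4, were in the same group, and the 4 groups overlapped throughout. The SD over the 16 arrays was 0.99 for A_70_P029956 and 1.08 for A_70_P016796, wider than 93.5% and 95% of the tested probes.

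The second IGF2 probe, A_70_P016796, which lies elsewhere in the transcript, ran from -4.42 in NK1 to -0.75 in NK4. The 2 probes followed each other across the arrays (Pearson r = 0.982, Spearman rho = 0.979, each with a permutation p = 1e-05, the smallest that the resamples allow), with r = 0.992 on slide 1 and 0.958 on slide 2, and r = 0.969 without NK1 and HK1. The spread of IGF2 between fetuses was therefore read alike by both sequences.

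No comparison of IGF2 passed the threshold. The difference was 0.25 (95% interval -1.41 to 1.91) and 0.04 (-1.45 to 1.53) in HC against NC for A_70_P016796 and A_70_P029956. In HK against NK it was -0.999 (-2.61 to 0.61) and -1.05 (-2.49 to 0.40). NK1 decided the values that use the NK arrays. Without NK1, HK against NK was -1.81 and -1.83, the interaction -2.06 and -1.87, and NK against NC 1.32 for A_70_P029956, all past the unadjusted threshold. The smallest adjusted p among these IGF2 values was 0.486 (limma).

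The same signal moved with IGF2. Only DCN and COL3A1 had tested probes among the 7 genes of that list. Their summed signal, nearly all of it DCN, ran from 3.01 to 4.74 in NC, 4.48 to 7.22 in NK, 2.88 to 5.22 in HC and 2.57 to 3.33 in HK. It correlated with IGF2 (A_70_P029956) over the 16 arrays at r = 0.682 (permutation p = 0.00389, adjusted over 15 pairs of gene and list 0.0292) and rho = 0.741 (permutation p = 0.00161, adjusted 0.0241). The correlation was 0.799 without NK1 and NK4, 0.647 on slide 1 and 0.820 on slide 2. How far the amount of such tissue entered the IGF2 values was not tested.

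**Figure D2:**
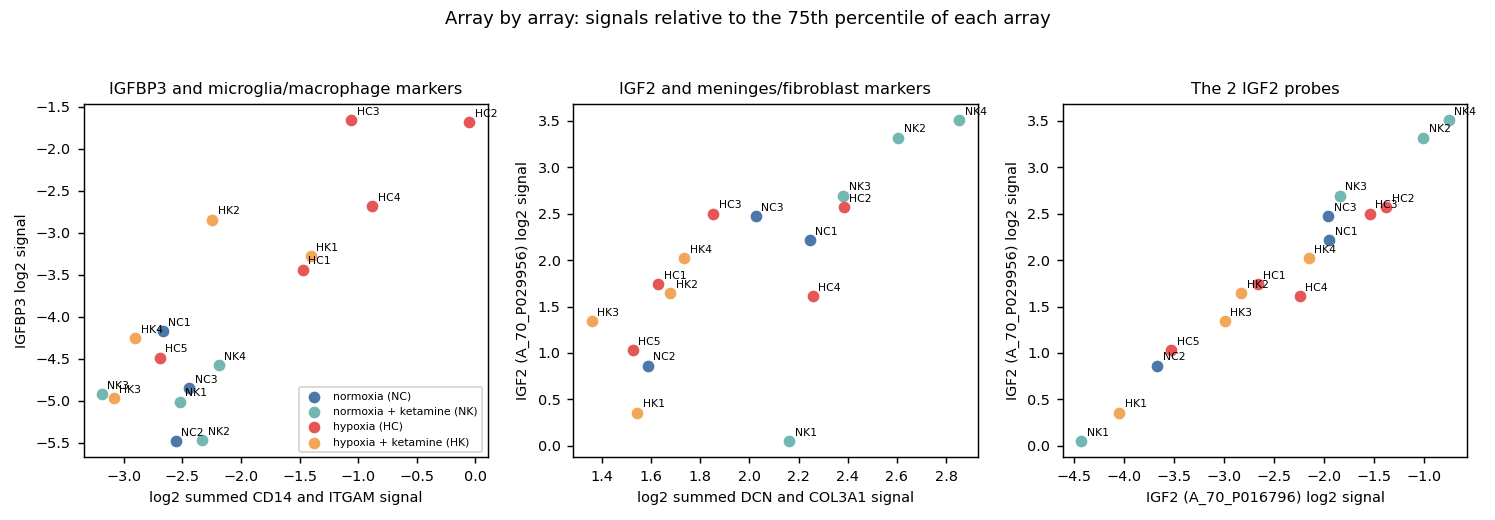
Left, IGFBP3 signal against the summed signal of CD14 and ITGAM; middle, IGF2 (A_70_P029956) against the summed signal of DCN and COL3A1; right, the 2 IGF2 probes against each other, each point an array, with axes in log2 after subtraction of the 75th percentile. HC2 and HC3 are high in both measures at left, NK1 lies below the other arrays in the middle, and the IGF2 probes lie along a line with r = 0.982.

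The type 1 receptor was read by the member IGF1R probe and by 2 further probes that the array names otherwise, IGFR1 and LOC780503, both described there as this receptor. These further probes lie outside the rule and were chosen after their names were seen. None of the 3 shares sequence with another, and both probes compared below are shown because they gave different readings.
IGF1R A_70_P041041: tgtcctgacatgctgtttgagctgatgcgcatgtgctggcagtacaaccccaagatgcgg
IGFR1 A_70_P026721: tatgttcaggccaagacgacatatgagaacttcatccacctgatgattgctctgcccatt

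IGF1R was at -2.15, -2.19 and -2.02 in NC, at -2.24, -2.18, -1.97 and -2.19 in NK, at -2.04, -1.88, -1.64, -2.00 and -2.25 in HC, and at -1.76, -2.19, -2.19 and -2.09 in HK. All 4 groups overlapped, and no comparison passed the threshold. The 95% intervals of its 4 pairwise differences lay between -0.36 and 0.44, and HC against NC was 0.16 (-0.13 to 0.44). LOC780503 likewise passed no test, with differences from 0.04 in HK against HC to 0.25 in HC against NC, although HC against NC passed the unadjusted threshold without HC5 (0.40).

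The IGFR1 probe was lower in the hypoxic fetuses given ketamine. It was at -2.83, -2.79 and -2.92 in NC, at -2.64, -2.37, -2.69 and -2.91 in NK, at -2.48, -2.94, -2.42, -2.90 and -2.78 in HC, and at -2.85, -2.98, -3.22 and -2.98 in HK. HK overlapped with HC and with NK through HK1 alone. The difference was -0.30 ± 0.13 in HK against HC (limma, adjusted p = 0.716) and -0.35 ± 0.14 in HK against NK (adjusted p = 0.468), and the interaction was -0.49 ± 0.20 (adjusted p = 0.996), all 3 past the unadjusted threshold. The HK against HC call was lost in 7 of 25 alternatives (quantile normalization, HC and HK fitted alone, and without HC1, HC3, HK2, HK3 or HK4), where the difference lay between -0.31 and -0.23, and the HK against NK call without NK2 or HK3. The interaction was lost with quantile normalization and without NC3, NK2 or HK3. The other 2 probes of this receptor gave interactions of -0.07 for IGF1R and -0.05 for LOC780503, neither past the threshold, and the difference between probes was not tested.

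The type 2 receptor was read by 2 probes named IGF-IIR that share 59 bases, and by a probe named M6P/IGF2R that was well above background on 1 of 16 arrays and was not tested. IGF-IIR A_70_P041802 was higher in HK than in NK by 0.35 ± 0.14 (limma, past the unadjusted threshold, adjusted p = 0.50), but its near copy A_70_P041801 differed by 0.15 ± 0.15 and did not pass. The call was lost in 6 of 25 alternatives, with normexp background correction, with the deposited values and without NK1, NK2, HK1 or HK3, where the difference fell as low as 0.20. A probe described as the insulin receptor passed no test in any comparison.

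**Figure D3:**
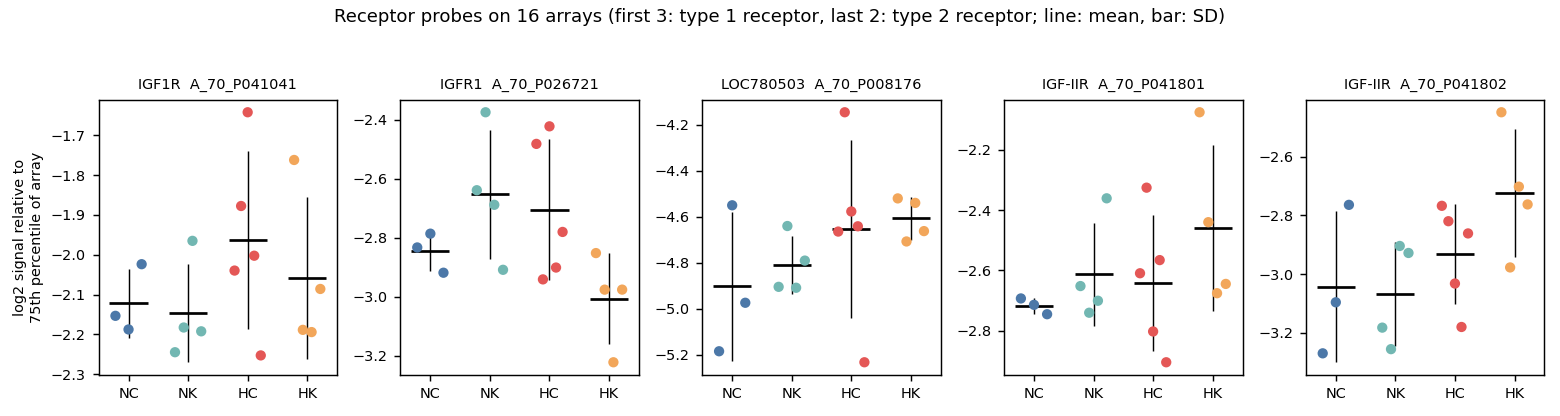
Signal (log2 minus the 75th percentile of the array) of 3 probes of the type 1 receptor (IGF1R, IGFR1, LOC780503) and 2 of the type 2 receptor (IGF-IIR) in NC, NK, HC and HK, with 1 point per fetus, the mean as a line and the SD as a bar. IGFR1 is lowest in HK, between -3.22 and -2.85, while IGF1R and LOC780503 overlap between all groups.

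IGFBP3 gave the largest called difference of the axis. Its probe was well above background on all 16 arrays. It was at -4.18, -5.48 and -4.85 in NC and at -5.01, -5.47, -4.93 and -4.58 in NK. In HC it was at -3.44, -1.69, -1.67, -2.68 and -4.49, and in HK at -3.28, -2.85, -4.97 and -4.26. HC1 to HC4 lay above every normoxic array, whereas HC5 lay among them, and HK1 and HK2 lay above every normoxic array and HK3 and HK4 among them. Its SD over the arrays was 1.25, wider than 97.1% of the tested probes, and was 1.20 within HC and 0.96 within HK against 0.65 in NC and 0.37 in NK.

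IGFBP3 was higher in HC than in NC by 2.04 ± 0.62, or 4.12-fold (limma, past the unadjusted threshold, adjusted p = 0.382). The call held under all 25 alternatives that gave a test, with differences from 0.79 with the deposited values (0.98 with normexp background correction) to 2.50, and with adjusted p-values from 0.0732 to 0.975. The difference was 2.26 on slide 1 and 1.90 on slide 2. Averaged over both ketamine arms, again an estimate added later, the difference was 1.60 ± 0.43 (limma, adjusted p = 0.206).

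Under ketamine the IGFBP3 difference with hypoxia was 1.16 (95% interval -0.13 to 2.45) in HK against NK and did not pass the threshold (limma, adjusted p = 0.624). It was 2.18 on slide 1 and 0.14 on slide 2, so it was not repeated within slides, and it passed the unadjusted threshold without HK3 (1.54) or HC5 (1.16) and with HK and NK fitted alone (1.16). HK against HC was -1.05 (-2.27 to 0.18), and it passed without HC5 (-1.47), without HK2 (-1.38) and with array weights (-1.33). The interaction was -0.89 (-2.74 to 0.97), so a difference in the hypoxia response of IGFBP3 with and without ketamine was not shown. Ketamine in normoxia gave -0.16 (-1.55 to 1.23).

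IGFBP3 moved with markers of microglia and macrophages, of whose list of 8 genes CD14, an endotoxin co-receptor, and ITGAM, an integrin of myeloid cells, had tested probes. Their summed signal ran from 0.158 to 0.184 in NC, 0.110 to 0.219 in NK, 0.155 to 0.965 in HC and 0.118 to 0.378 in HK. CD14 made up most of it, with log2 group means of -2.84 to -1.49 beside -5.08 to -4.31 for ITGAM. HC5 had the lowest sum of the HC arrays and the lowest IGFBP3. HK2 went the other way, with the highest IGFBP3 of the HK arrays and a sum of 0.211, within the NK range. Over the 16 arrays the sum correlated with IGFBP3 at r = 0.836 (permutation p = 1e-04, adjusted over 15 pairs 0.0015) and rho = 0.671 (permutation p = 0.00528, adjusted 0.0396). The correlation was 0.708 without HC2 and HC3, 0.749 after centring each group, and 0.809 and 0.895 on slides 1 and 2. The part of such cells in the IGFBP3 difference was not tested. Among 1299 named probes, those whose levels over the 16 arrays were most like IGFBP3 were both probes of SLC11A1 and 1 probe of STAR. SLC11A1, a metal transporter of the macrophage phagosome, had r = 0.889 and 0.885 and was itself higher in HC than in NC, by 2.26 and 2.29. STAR, the cholesterol carrier of steroid synthesis, had r = 0.870 and was higher in HC than in NC by 1.69. For IGF1 the most alike named probes were of PCK1, a gluconeogenic enzyme (r = 0.828), COL3A1 (r = 0.822) and FABP5, a fatty acid binding protein (r = 0.806). COL3A1 differed by -0.68 in HC against NC. After centring each slide the IGF1 list changed to TRHR, PCK1 and CCND2.

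IGFBP1, whose product inhibits IGF action and is made mainly in liver, was near the detection limit, and its signal was high on some arrays only. Probe A_70_P016366 was at -7.83, -8.10 and -7.24 in NC, well above background on none. It was at -7.96, -8.13, -7.53 and -4.35 in NK, at -4.69, -4.63, -3.96, -7.39 and -7.55 in HC, and at -3.85, -6.75, -8.08 and -5.62 in HK. NK4, HC1, HC2, HC3, HK1 and HK4 formed a bright set, the only arrays on which this probe was well above background, and its near copy A_70_P016367 was well above background on 6 arrays too. The HC mean was at least 1.82-fold above NC for A_70_P016366 (measured means -5.64 and -7.73, limma adjusted p = 0.669) and at least 1.39-fold for A_70_P016367 (means -6.04 and -8.07, limma adjusted p = 0.734), where at least means that NC was set to the lowest signal well above background on its arrays. Only 3 of the 5 HC arrays measured either probe.

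These bounds hold for this scaling only, since the difference of the measured means was 0.48 and 0.54 on the log2 scale with normexp background correction and 0.27 and 0.30 with the deposited values. The pair did not pass the unadjusted threshold in HC against NC. Both probes passed it without HC5, and A_70_P016366 also without HC4 or NK4, but each of these fits set the HC arrays against NC signals that were not well above background. The third IGFBP1 probe, A_70_P069081, read a different sequence and was well above background on 8 arrays, 4 of them in HC. Its difference was 0.50 (-0.58 to 1.58), and its relation to the pair over the arrays was unclear. With A_70_P016366 r was 0.385 (permutation p = 0.141) and rho 0.579 (permutation p = 0.0204, adjusted over 8 pairs 0.0233), and with A_70_P016367 r was 0.330 (permutation p = 0.218) and rho 0.344 (permutation p = 0.191). Both values of r were positive on slide 1 (0.690 and 0.706) and negative on slide 2 (-0.234 and -0.366). On NK4, where the pair was brightest within NK, it was at -6.05 and on HK1 at -5.07. The arrays on which the IGFBP1 pair was bright were not all those on which IGFBP3 was high. HC4 and HK2 were high for IGFBP3 and not for the pair, and NK4 and HK4 for the pair and not for IGFBP3. The third IGFBP1 probe differed from the pair on HC4, where it was at -5.15 and well above background.

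The other binding proteins passed no test in any comparison. IGFBP2, a major binding protein of the fetal brain, lay between 2.29 and 3.14 on all arrays over both probes. The 95% intervals of its 4 pairwise differences stayed between -0.49 and 0.43. IGFBP4, which inhibits IGF action until it is cleaved, lay between 1.41 and 2.37, with intervals between -0.43 and 0.56. IGFBP5, a binding protein held in the matrix, lay between -3.79 and -2.65, with intervals between -0.53 and 0.59. IGFBP6, which prefers IGF2 over IGF1, lay between 0.48 and 1.55, with intervals between -0.70 and 0.73. NC2 was the lowest NC array for both probes of IGFBP2, IGFBP4, IGFBP6 and IGF2. It was also the lowest for the called genes IGF1 (-4.43) and IGFBP3 (-5.48). HK1 was the lowest HK array for IGFBP2, IGFBP4, IGFBP5, IGFBP6 and IGF2, and for the called gene IGF1 (-5.56).

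**Figure D4:**
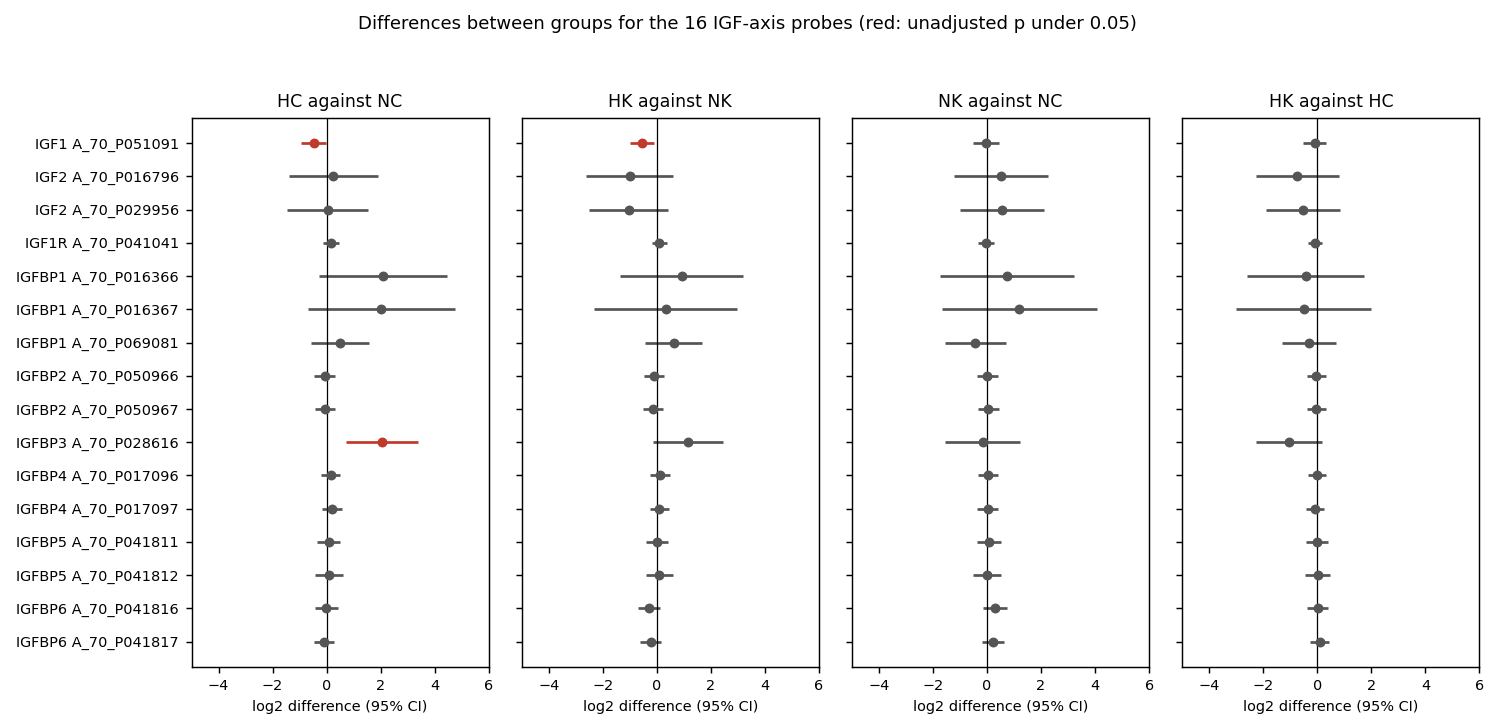
Fitted log2 differences with 95% confidence intervals for the 16 IGF-axis probes in HC against NC, HK against NK, NK against NC and HK against HC, red where the limma test passed the unadjusted threshold. IGFBP3 (2.04) and IGF1 (-0.48) stand out in HC against NC and IGF1 (-0.54) in HK against NK, while the intervals of IGF2 and of the IGFBP1 pair are several times wider than those of IGFBP2, IGFBP4, IGFBP5 and IGFBP6.

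Over the arrays, 28 pairs of genes were compared, with 1 probe per gene and IGFBP1 left out. The arrays fell into separate sets for the IGFBP1 probes A_70_P016366 and A_70_P016367. They did not for A_70_P069081, which lay between -6.92 and -5.07 except in NK2 (-8.24). The relation of IGFBP1 to the other genes was not tested. By Pearson r, 7 pairs passed after adjustment, and by Spearman rho none did (smallest adjusted permutation p = 0.0677). IGF2 and IGFBP2 rose and fell together (r = 0.641, permutation p = 0.0081, adjusted p = 0.0454, rho = 0.621), as did IGFBP2 and IGFBP6 (r = 0.670, permutation p = 0.00545, adjusted p = 0.0381, rho = 0.632). IGF1 and IGF1R ran opposite (r = -0.751, permutation p = 0.0015, adjusted p = 0.0301, rho = -0.50), but without HC3 and HK1 the value was -0.452, so this relation rested on those arrays. IGF1R and IGFBP3 rose and fell together (r = 0.696, permutation p = 0.00306, adjusted p = 0.0301, rho = 0.585), at 0.573 without HC3 and HK1. So did IGF1 and IGFBP6 (r = 0.675, permutation p = 0.00322, adjusted p = 0.0301, rho = 0.638), at 0.505 without those arrays. IGFBP5 moved with IGFBP2 (r = 0.608, permutation p = 0.0112) and IGFBP6 (r = 0.602, permutation p = 0.0117), with an adjusted p of 0.0467 for each. Without the 2 arrays farthest from the median, none of the 28 pairs passed after adjustment, and the deposited values gave none either.

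Of the 63 listed partner genes of the pathway (insulin, growth hormone signals, receptor substrates, kinases and proteases of the binding proteins), 5 had a tested probe: AKT1, GHR, GHRHR, SST and STAT5A, the last named KITLG on the array. None passed in HC against NC, NK against NC or the interaction. In HK against HC and in HK against NK, 1 of the 5 passed, where 6.92% and 8.69% of all tested probes did. In both it was GHR, the growth hormone receptor that drives IGF1 synthesis in liver and other tissues. It lay between -2.73 and -2.29 in NC, -2.73 and -2.13 in NK, -3.42 and -1.97 in HC and -3.40 and -2.64 in HK, so HK overlapped with every other group. Its difference was -0.64 ± 0.27 in HK against HC (limma, adjusted p = 0.714) and -0.66 ± 0.28 in HK against NK (adjusted p = 0.537), both past the unadjusted threshold. In HK against HC the GHR call was lost in 7 of 25 alternatives, and in HK against NK in 4. These 2 comparisons share the HK arrays.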

How the data were processed

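Total RNA from the hypothalamus of 16 fetuses was hybridized by the authors to one-color Agilent sheep arrays. Per the file headers, Feature Extraction 10.1.1.1 wrote the deposited intensities, detrended within each array, with local background correction off and no normalization between arrays. The authors further deposited log2 values of these arrays as 1 table, whose background correction and scaling are not given in the sources used here. Its column medians were 8.53, and each column ranked probes most like its own array (rho 0.993 to 0.997). It served as an alternative.

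Control spots (536 of 15744) and outlier spots (0.0801% of the rest) were left out, and log2 processed signals were taken minus the array's upper-quartile value. Of 15008 probes, 12250 were tested, each flagged as well above background by the scanner software on 3 or more arrays, all 16 members among them. The 4 groups were fitted together in limma 3.58.1 (R 4.3.3), after the study's methods, with 5 contrasts and the study's threshold of an unadjusted p under 0.05, and p-values were adjusted over all tested probes. The script was tested on simulated data. Correlations used 100000 permutations (NumPy 2.4.6). Of 750 probes with RefSeq accessions, 726 took a current symbol from the annotation. The number of arrays limits the precision.

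All members, partner genes past the threshold, and the 3 named probes most like each member that passed in any contrast are named. The members, gene lists and tests were chosen with earlier results of these data known. The alternatives were other normalizations, background correction, filters, slide and replicate blocks, array weights, fits of 2 groups only and each array left out.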

Additional observations from a re-analysis of the deposited data

Results flagged for a closer look

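Of 63 sets of one probe in one group of 4 or 5 arrays, 2 held an array far from the others of its group, where chance alone gives about 1 in 20. IGFBP1 probe A_70_P016366 was at -4.35 in NK4 and between -8.13 and -7.53 in the other NK arrays, and its near copy was brightest in NK4 too. IGFBP1 probe A_70_P069081 was at -8.24 in NK2 and between -6.21 and -6.05 in the other NK arrays, and it was well above background in NK4 alone of these arrays. The effect of ketamine on the IGFR1 probe differed between hypoxia and normoxia by -0.49 on the log2 scale in limma (adjusted p = 0.996), and the other 2 probes of the type 1 receptor gave -0.07 and -0.05.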

How the results depend on the processing

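No called result changed sign under any alternative. The 77 uncalled results of single members had 1891 alternatives, of which 16 were called and 144 had the sign turned. The IGF-axis count in HC against NC fell from 2 to 1 with slide as a block and with probes well above background on all arrays, which left 12 members and dropped IGF1, and ran from 1 to 4 (without HC5) with arrays left out. In HK against HC it rose from 0 to 1 with the replicate block (IGFBP3, -1.47) and with array weights, and ran from 0 to 1 (without HC5 or HK2). In HK against NK it fell from 1 to 0 with deposited values and with the stricter filter, and ran from 0 (without NK2 or HK1) to 3 (without NK1). It ran from 0 to 1 in NK against NC and from 0 to 2 for the interaction, the upper values without NK1. Over all probes the counts were 983 for hypoxia with saline, 133 for ketamine in normoxia, 848 for ketamine in hypoxia, 1065 for hypoxia with ketamine and 456 for the interaction, the order kept below. NK against NC became 88 with normexp, 85 with the stricter filter, 269 with array weights and 220 with its 2 groups alone. HK against HC became 507 with its groups alone, and array weights gave 1650 in HK against NK and 759 for the interaction. Without 1 array the counts ran from 617 (without NC2) to 1317, 120 to 234 (without NC1, and 230 without NK1), 505 (without HK3) to 1228, 767 to 1462 and 324 to 659. With the replicate number as a block they were 1180, 189, 1118, 1104 and 554. The block also gained LOC780503 in HC against NC (0.41) and lost GHR in HK against HC (-0.52). Same numbers share a slide but no stated litter or day, and same-numbered arrays correlated at a median of 0.224, beside 0.208 for other arrays of the slide, so they were not treated as pairs (9 of 16 arrays correlated best with their own number). The share of higher calls was 54.2, 79.7, 43.0, 27.5 and 32.0%, but 46.4, 47.6, 52.0, 37.8 and 56.8% with quantile normalization. Of the 28 gene pairs, 7 passed, but 0 with normexp, deposited values or without the 2 arrays farthest from the median.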
